A study of Homo sapiens with 4 samples.

Results

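The regions described here are open-chromatin regions at the 9 core genes of the Hedgehog signalling pathway, which are the ligand genes SHH, IHH and DHH, the receptor gene PTCH1, the transducer gene SMO, the transcription factor genes GLI1, GLI2 and GLI3, and the ligand antagonist gene HHIP. Peaks of the 4 deposited ATAC-seq lists were merged wherever they overlapped, and every merged region that overlapped the GENCODE 44 gene body of one of these genes, extended by 20 kb on each side, was taken as a member. There were 113 such regions among 164301 merged regions, with 7 at SHH, 10 at IHH, 7 at DHH, 11 at PTCH1, 6 at SMO, 8 at GLI1, 25 at GLI2, 29 at GLI3 and 10 at HHIP.

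The cells were pancreatic progenitors (PPs) made by directed differentiation from 1 human embryonic stem cell line, MEL1, which in the study's methods carries a GFP reporter at the insulin gene. All of them grew in EF6 medium, which holds B27 supplement, the growth factors EGF and bFGF, and 616452, an inhibitor of TGFβ signalling. For 7 days 2 libraries received the solvent DMSO and 2 received 1 μM I-BET151, an inhibitor of the BET bromodomain proteins that read acetylated lysine on histones. No source used here says whether the replicates of a condition were separate cultures, so p-values measure only the spread between these libraries, which may be technical. ATAC-seq marks open chromatin by the sites where a transposase inserts adapters, and in such bulk libraries more cells with an open site and more opening per cell cannot be told apart.

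Hedgehog ligands bind PTCH1, which without ligand keeps SMO inactive. Once SMO is active, GLI2 and GLI3 act as activators in place of repressors, and GLI1, PTCH1 and HHIP are themselves transcribed in response, PTCH1 and HHIP then acting as brakes on the signal. In the embryo SHH is kept out of the gut endoderm that forms the pancreas, and Hedgehog ligands of endoderm signal mainly to the surrounding mesenchyme.

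Each list held from 38295 to 111324 peaks on the main chromosomes, and 57 and 23 of the 113 Hedgehog regions were called in DMSO replicates 1 and 2, against 56 and 84 in I-BET151 replicates 1 and 2. DMSO replicate 2 called the fewest of all regions as well, 22.9% of the merged set, against 47.9% for DMSO replicate 1, 49.2% for I-BET151 replicate 1 and 67.7% for I-BET151 replicate 2. The lists give, for every peak, the fold enrichment of reads at the summit over the local background, and the folds and p-values together imply a genome background of 2.87 and 3.16 reads in the DMSO replicates, against 0.923 and 1.52 in the I-BET151 replicates. Regions called in all 4 lists had a higher fold with I-BET151 genome-wide, by a median of 0.83 on the log2 scale, so fold was also ranked within each list, as a percentile from 0 to 100 of that list's peaks. Start sites of 8, 7, 9 and 9 of 10 pancreatic progenitor marker genes were called in DMSO replicates 1 and 2 and I-BET151 replicates 1 and 2, with none at PTF1A in any list. The same counts were 3, 3, 6 and 7 of 10 for mesenchyme markers and 1, 1, 1 and 2 of 5 for pluripotent markers. They were 2, 1, 3 and 3 of 8 for endocrine markers and 3, 2, 3 and 3 of 6 for other endoderm markers. Of all protein-coding genes 61.2%, 56.1%, 66.6% and 70.4% had a called start in these lists. The part of such other cells in the results was not tested.

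The sequences of the regions on which the results turn are given first, all on hg38 (GRCh38). PTCH1, HHIP, SMO and IHH are shown by their RefSeq promoters, which run from 250 bases before to 50 bases after the start of transcription and are written along the gene's strand. In the PTCH1 promoter, chr9:95509217-95509516 on the minus strand, the capitals mark the only exact match to the GLI consensus GACCACCCA near the summit of any Hedgehog region, read on the opposite strand.
PTCH1 promoter: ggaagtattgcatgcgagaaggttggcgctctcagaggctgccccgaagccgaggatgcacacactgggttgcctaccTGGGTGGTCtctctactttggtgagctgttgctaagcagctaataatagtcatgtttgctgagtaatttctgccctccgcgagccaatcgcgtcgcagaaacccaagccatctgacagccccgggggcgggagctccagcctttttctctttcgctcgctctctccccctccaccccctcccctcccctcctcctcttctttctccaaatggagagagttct
In the next 3 promoters the capitals mark the 21 bases centred on the ATAC-seq summit. HHIP, chr4:144645906-144646205 on the plus strand, had the one start site open in all 4 lists. SMO, chr7:129188383-129188682 on the plus strand, had the highest fold of any of the start sites with I-BET151. IHH, chr2:219060872-219061171 on the minus strand, was called only with I-BET151.
HHIP promoter: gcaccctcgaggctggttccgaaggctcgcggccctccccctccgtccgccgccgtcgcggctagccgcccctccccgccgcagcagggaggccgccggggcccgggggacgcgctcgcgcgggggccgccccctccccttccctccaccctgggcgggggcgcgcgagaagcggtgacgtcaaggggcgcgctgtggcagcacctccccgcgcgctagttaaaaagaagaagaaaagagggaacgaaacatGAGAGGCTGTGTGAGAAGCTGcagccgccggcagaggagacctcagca
SMO promoter: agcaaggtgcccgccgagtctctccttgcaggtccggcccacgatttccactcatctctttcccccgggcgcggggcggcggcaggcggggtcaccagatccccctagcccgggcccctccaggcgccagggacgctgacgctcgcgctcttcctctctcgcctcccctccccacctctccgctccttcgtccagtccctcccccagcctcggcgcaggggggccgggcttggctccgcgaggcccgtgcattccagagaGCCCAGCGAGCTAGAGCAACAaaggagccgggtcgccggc
IHH promoter: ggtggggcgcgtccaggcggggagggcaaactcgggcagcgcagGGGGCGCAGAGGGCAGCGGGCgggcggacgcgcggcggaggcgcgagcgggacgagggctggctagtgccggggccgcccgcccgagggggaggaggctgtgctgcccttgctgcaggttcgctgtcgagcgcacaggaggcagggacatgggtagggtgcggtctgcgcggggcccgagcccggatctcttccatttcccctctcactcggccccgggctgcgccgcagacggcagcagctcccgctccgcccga
Upstream of GLI1, the summit of its start region with 100 bases on each side, chr12:57459159-57459359, is given on the plus strand, as is that of the one lost region, chr2:219037754-219037954, with the 21 bases at the summit in capitals.
GLI1 start region: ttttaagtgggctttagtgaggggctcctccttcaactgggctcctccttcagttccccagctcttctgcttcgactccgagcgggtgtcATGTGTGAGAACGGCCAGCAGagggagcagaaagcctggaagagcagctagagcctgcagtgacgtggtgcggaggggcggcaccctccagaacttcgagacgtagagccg
Lost region near IHH: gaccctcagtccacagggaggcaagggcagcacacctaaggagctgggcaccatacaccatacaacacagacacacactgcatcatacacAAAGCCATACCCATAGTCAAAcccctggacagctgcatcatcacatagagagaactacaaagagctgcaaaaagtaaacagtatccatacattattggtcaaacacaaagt

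Across the 113 Hedgehog regions the calls moved towards I-BET151 much as they did over the genome. A region was counted as gained when both I-BET151 lists and no DMSO list called it, and as lost in the opposite case. A missing call means that no peak passed the authors' threshold there, not that the site was closed. There were 20 gained Hedgehog regions, which is 17.7% of them against 17.0% of all merged regions. A single region was lost, 0.885% against 2.37% of all merged regions. Another 18 regions, 15.9% against 15.6%, were called in all 4 lists. The shares of gained and of shared regions were thus near those of the whole set.

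Gained regions occurred at every one of the 9 genes. GLI2 had 4, GLI1, GLI3 and HHIP had 3 each, SHH and PTCH1 had 2 each, and IHH, DHH and SMO had 1 each. Of the 20, 3 lay within 1 kb of the gene's own start, 10 elsewhere in the gene and 7 in the flanks. Their folds ran from 3.09 to 11.5 and their percentiles from 0.318 to 91.4. The median of their mean percentiles was 32.5, against 46.8 for all gained regions, so most were small peaks. Of all 113 Hedgehog regions, 53 were called in a single list, 46.9% against 51.8% of all merged regions. I-BET151 replicate 2 alone called 25 of them, or 22.1% of the Hedgehog regions against 22.3% of all.

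The libraries of a condition differed from each other as well, and the replicate numbers were not taken as pairs. Between the libraries numbered 1, 29 Hedgehog regions had a peak in the I-BET151 list alone and 30 in the DMSO list alone. Between those numbered 2, the counts were 64 and 3. Over all merged regions the same comparisons gave 46196 against 44051 and 79854 against 6306. With equal numbers of the best peaks taken from each list, 6 Hedgehog regions were gained, 16.2% against 9.19% of all regions, and 2 were lost, 5.41% against 5.85%. Without I-BET151 replicate 1, 45 were gained, 42.9% against 43.7% of all regions. Without I-BET151 replicate 2, 31 were gained, 33.7% against 35.8%, and 2 were lost, 2.17% against 5.82%. Without DMSO replicate 2, 19 were lost, 17.1% against 20.9%, and without DMSO replicate 1, 3 were lost, 3.16% against 4.56%.

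Few start sites of the Hedgehog genes were called with DMSO. In DMSO, 4 genes in replicate 1 and 1 gene in replicate 2 had a called region within 1 kb of the start of the canonical transcript, and with I-BET151 7 genes did in each replicate. These are 44.4% and 11.1% of the 9 genes with DMSO and 77.8% in both I-BET151 lists, where the shares for all 20007 protein-coding genes were 61.2%, 56.1%, 66.6% and 70.4%. Start regions of 3 genes, IHH, PTCH1 and GLI1, were gained, 33.3% of the 9 against 8.34% of protein-coding genes, and none was lost, against 0.720%. Only HHIP had a start region in all 4 lists, where 53.3% of protein-coding genes did. SHH and DHH had no region within 1 kb of the start in any list.

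The ligand gene with the emptiest locus was SHH, the broadly acting patterning ligand of the embryo. Of its 7 regions none was called in all 4 lists, and in DMSO replicates 1 and 2 only 2 regions and 1 region were called. Both gained regions were weak. One, in intron 1 at chr7:155808133-155809297, had folds of 3.09 and 3.11 with I-BET151, at percentiles 0.318 and 2.11 of those lists. The other, 15.3 kb downstream of the start at chr7:155796904-155797359, had folds of 3.82 and 4.31 and held a CTCF consensus match. CTCF is the zinc finger protein that bounds chromatin loops. The peak nearest to the start, 3.10 kb upstream, was called only in I-BET151 replicate 2, at a fold of 4.90.

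At IHH, the Hedgehog ligand best known from cartilage and gut, the start region at −196 bp, chr2:219060924-219061261, was gained. Neither DMSO list called it, and its folds were 3.95 and 4.24 in the I-BET151 lists, on 17 and 36 reads at the summit. Its percentiles of 10.0 and 18.7 place it among the lower peaks of those lists. A region in intron 1, 1.75 kb inside the gene, was open in all 4 lists with folds of 3.73 and 3.10 with DMSO and 7.83 and 7.96 with I-BET151. Both I-BET151 values lay above both DMSO values in fold and in percentile, from 42.6 and 14.1 to 75.5 and 70.7. The strongest peak of the locus lay 10.5 kb upstream, in the untranslated part of exon 8 of NHEJ1, a DNA repair gene. It had folds of 4.30, 3.37, 8.82 and 11.6 in DMSO replicates 1 and 2 and I-BET151 replicates 1 and 2, at percentiles of 63.4, 25.5, 81.9 and 90.7. Again the groups did not overlap in either measure. In fold, 90.1% of all regions called in all 4 lists had both I-BET151 values above both DMSO values. The matching share for percentile is not given here, so the separation is not particular to these regions on these values.

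The only lost Hedgehog region also lay near IHH, 23.1 kb downstream of its start, at chr2:219037704-219038037 in intron 4 of the neighbouring gene CFAP65. It had folds of 4.44 and 4.10 with DMSO, at percentiles 68.2 and 51.1, and was called in neither I-BET151 list. It thus ranked near or above the middle of both DMSO lists.

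DHH, a ligand known from testis and peripheral nerve, had 3 regions in all 4 lists and 1 gained region. The strongest regions of the window belonged to its neighbours. The start of RHEBL1, 24.8 kb downstream, had folds of 7.08, 5.87, 16.5 and 14.1, and the start of LMBR1L, 16.2 kb upstream, had folds of 6.62, 6.69, 14.8 and 11.8. Inside DHH itself, the untranslated part of exon 3 held a region with folds of 4.61, 4.81, 10.2 and 10.8. That region holds a CTCF consensus match within 100 bp of its summit. The gained region in intron 1, chr12:49092095-49092488, was weak, with folds of 3.59 and 4.26. DHH thus had few strong peaks of its own.

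The receptor gene PTCH1 had its start region gained. At −124 bp, chr9:95509029-95509695, the I-BET151 lists gave folds of 5.57 and 4.53, at percentiles 48.8 and 24.7 and on 41 and 65 reads, while neither DMSO list had a peak. The GLI letters of the printed promoter lie within 100 bp of this summit, at chr9:95509430-95509438, and their far end is 172 bp upstream of the start. Among all merged regions 0.160% held these 9 letters within 100 bp of the summit on either strand. Among 35116 RefSeq promoters 0.236% held them within the 300 bases of the promoter, a longer window. A match is a description of the sequence, and binding of a GLI protein was not measured.

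Farther along PTCH1, a peak 1.85 kb upstream was called in all 4 lists with folds of 3.78, 4.16, 6.15 and 6.37. A peak 64 bp inside the upstream end of the longest PTCH1 transcripts, 7.73 kb from the canonical start, was called in DMSO replicate 1 with a fold of 3.40 and in the I-BET151 lists with 4.31 and 5.61. Peaks near PTCH1 were thus called with DMSO too, away from the canonical start. In intron 15 the folds were 3.67 and 4.97 with DMSO and 9.88 and 12.9 with I-BET151. The second gained region, 82.3 kb downstream of the start and beyond the gene's end at chr9:95426297-95427196, had folds of 11.0 and 11.5 at percentiles 91.4 and 90.4. It was the strongest of the 20 gained Hedgehog regions.

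SMO encodes the membrane protein that carries the signal into the cell. Its start region, at +20 bp (chr7:129188230-129189672), was called in DMSO replicate 1 at a fold of 2.93 and not in DMSO replicate 2. The I-BET151 lists gave 7.80 and 7.81. In percentile this was 8.04 with DMSO replicate 1 against 74.9 and 69.1 with I-BET151, the widest gap among the start regions. A region 30.2 kb downstream of the start, past the end of SMO at chr7:129218629-129219078, was gained with folds of 7.02 and 10.4. The strongest peak of the window was the start of AHCYL2, with folds of 7.34, 6.82, 10.8 and 11.2, and its percentiles of 94.8, 89.3, 90.7 and 89.3 overlapped between conditions.

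GLI1, the GLI factor that serves as the usual readout of the pathway, had 3 gained regions among 8. The start region at −526 bp, chr12:57459103-57459708, had folds of 4.96 and 4.94 with I-BET151, at percentiles 36.3 and 32.0, and no peak with DMSO. A second, 8.14 kb upstream in the untranslated part of exon 2 of INHBC, a gene of the activin family, spanned chr12:57451312-57451862 and had folds of 6.15 and 6.59. The third, in a coding exon of ARHGAP9 at chr12:57475524-57476112, had folds of 5.11 and 3.81. Intron 1 of GLI1 held a region open in all 4 lists, with folds of 3.95 and 3.97 with DMSO and 8.14 and 5.78 with I-BET151. Its percentiles of 52.3, 46.5, 77.6 and 45.6 overlapped, so its place among the peaks of each list did not separate the conditions. The start of MARS1, 28.2 kb downstream, was among the strongest peaks of every list, with percentiles of 92.3, 87.7, 98.5 and 93.9.

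GLI2, the main GLI activator, had 25 regions over a gene body of 257 kb, of which 3 were called in all 4 lists and 4 were gained. Its start region at +93 bp, chr2:120735615-120736289, had a fold of 2.78 in DMSO replicate 1, no peak in DMSO replicate 2, and folds of 5.11 and 5.13 with I-BET151. A second peak near the start, with its summit at +1.41 kb, was called in DMSO replicate 1 and I-BET151 replicate 2 only. Of the gained regions, the strongest lay 12.9 kb upstream, at chr2:120722679-120723378, with folds of 5.72 and 7.55, and the other 3 lay in introns 1 and 2 with folds of 3.76 to 5.81. The highest mean percentile of any GLI2 region was 42.0 with DMSO and 72.8 with I-BET151, so the locus held no peak near the top of the lists.

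GLI3, which acts mostly as a repressor when no ligand is present, had 29 regions over 303 kb, the most of the 9 genes. Its start region at −227 bp, chr7:42237192-42238617, had folds of 3.64 in DMSO replicate 1, 4.89 in I-BET151 replicate 1 and 7.58 in I-BET151 replicate 2, and no peak in DMSO replicate 2. A second region at +640 bp was weaker, with folds of 2.95, 3.73 and 3.21 in the same lists. Both start regions were thus called in the same 3 lists. Peaks in intron 2 were strong in all 4 lists. The one at +82.3 kb had folds of 7.12, 4.96, 9.47 and 12.5, and the one at +69.8 kb had 6.67, 6.01, 9.36 and 10.1. Their percentiles overlapped between conditions, from 92.1 and 83.1 with DMSO to 84.9 and 84.8 with I-BET151 at +69.8 kb.

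A pair of gained regions near the 3′ end of GLI3 each held a CTCF consensus match, 2.67 kb apart and on the same strand. The one in intron 10 had folds of 8.27 and 7.38 with I-BET151, and the one in intron 12 had 4.93 and 4.65. CTCF matches within 100 bp of the summit occurred in 4 Hedgehog regions, 3.54% against 1.86% of all regions, and in 3 of the 20 gained ones, 15% against 4.13% of all gained regions. They are shown on the plus strand with the 12 matched bases in capitals, since all 4 point the same way on the chromosome.
GLI3 intron 10, chr7:41979952-41979981: ccagttactCCACTAGATGGCctttcgctt
GLI3 intron 12, chr7:41977279-41977308: actgtttgaCCAGTAGGTGGCagttcaaaa
SHH downstream, chr7:155797121-155797150: ccgaggcgaCCACCAGAGGGCgcgcggact
DHH exon 3, chr12:49088420-49088449: tcttgaaggCCACCAGAGGGCggtgtatag
Motifs of pancreatic progenitor factors were searched in the same way. The FOXA letters TGTTTAC occurred in 6 of the 113 regions, the GATA-factor letters AGATAA in 11, the PDX1-type homeobox letters TAATTA in 2 and the ONECUT letters ATCGAT in 0. These are 5.31%, 9.74%, 1.77% and 0% against 4.57%, 14.2%, 4.72% and 0.611% of all regions. The median GC content within 100 bp of the summit was 55.7% in the Hedgehog regions and 47.8% in all regions.

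HHIP, the membrane-bound antagonist that takes up Hedgehog ligand, was the one gene with an open start in all 4 lists. At +12 bp, chr4:144645513-144646851, the folds were 4.47 and 3.99 with DMSO and 4.91 and 5.08 with I-BET151. The percentiles went the other way, 68.8 and 47.0 with DMSO against 35.4 and 33.7 with I-BET151. Both I-BET151 lists thus had a slightly higher fold and a lower rank at this start, and neither measure overlapped between conditions. In fold, 90.1% of all regions called in all 4 lists had both I-BET151 values higher. The share with both percentiles lower is not given here. The 3 gained regions of HHIP lay in intron 10 (chr4:144718439-144718836), in coding exon 12 (chr4:144734340-144734997) and 104 kb downstream of the start (chr4:144750372-144750764), with folds of 3.54 to 7.01 with I-BET151. All 10 regions of the window also lie in intron 4 of a longer annotated gene, ENSG00000285713.

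**Figure D1:**
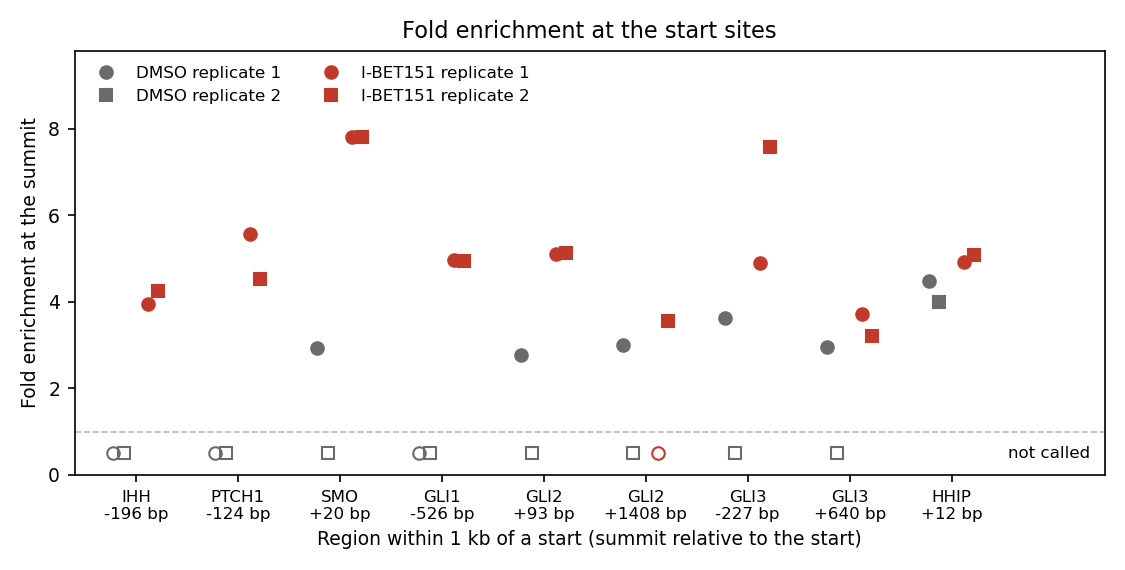
Fold enrichment at the summit (vertical axis) for the 9 regions within 1 kb of a Hedgehog gene's canonical start, with filled points for called peaks in each of the 4 libraries and open points at the bottom where no peak was called. IHH, PTCH1 and GLI1 have peaks only in the I-BET151 lists, and only HHIP has a peak in all 4, with folds from 3.99 to 5.08.

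The 18 Hedgehog regions called in all 4 lists allowed a test of rank with limma, fitted over all 25627 shared regions with Benjamini-Hochberg adjustment. The rank tested is that of a region's fold among the shared regions of its list, turned into a normal score, and not the percentile among all peaks of the list given above. No Hedgehog region had an adjusted p under 0.05 in either direction, where 3.41% of all shared regions were higher and 1.96% lower with I-BET151. At an unadjusted p under 0.05 there were 3 higher and 1 lower, 22.2% of the 18 against 24.9% of all. The region 10.5 kb upstream of IHH had the largest difference, 1.12 ± 0.39 (SE, SD units of rank, 95% interval 0.29 to 1.95, limma adjusted p = 0.0956). PTCH1 intron 15 followed with 1.05 ± 0.45 (limma adjusted p = 0.158), and IHH intron 1 with 0.87 ± 0.39 (limma adjusted p = 0.184). The HHIP start was lower by rank, at −1.10 ± 0.39 (95% interval −1.92 to −0.29, limma adjusted p = 0.0969). Of the 18 regions 11 had a positive difference, with a median of 0.41, where 48.4% of all shared regions did, with a median of −0.03. On the percentiles among all peaks of a list, 15 of the 18 were higher on average with I-BET151, with a median difference of 12.4, where 68.9% of all shared regions were higher, with a median of 6.28. Without I-BET151 replicate 2, 1 region at DHH had a difference of 1.42 ± 0.47 (SE) by rank among the shared regions. That fit assumes the lone I-BET151 library to vary like the DMSO libraries. The standard errors of the 18 regions ran from 0.38 to 0.47 in the SD units of rank.

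In fold, which keeps the genome-wide shift, both I-BET151 values lay above both DMSO values in all 18 regions, as they did in 90.1% of all shared regions. By limma on this uncentred fold 17 of the 18, all but the HHIP start, were higher, against 76.5% of all shared regions. The median difference was 1.03 on the log2 scale in the 18 regions and 0.83 in all. Relative to the genome-wide median, the IHH upstream region was higher by 0.58, PTCH1 intron 15 by 0.58 and IHH intron 1 by 0.39, and the HHIP start was lower, at −0.59. On fold with each library centred on its own median, limma placed the HHIP start past the threshold, at −0.67 ± 0.20 (log2, SE, adjusted p = 0.0454), where 4.33% of all shared regions were lower. The direction at HHIP therefore depended on the scale, lower in rank and in centred fold and higher by 0.24 (log2) in fold as deposited.

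**Figure D2:**
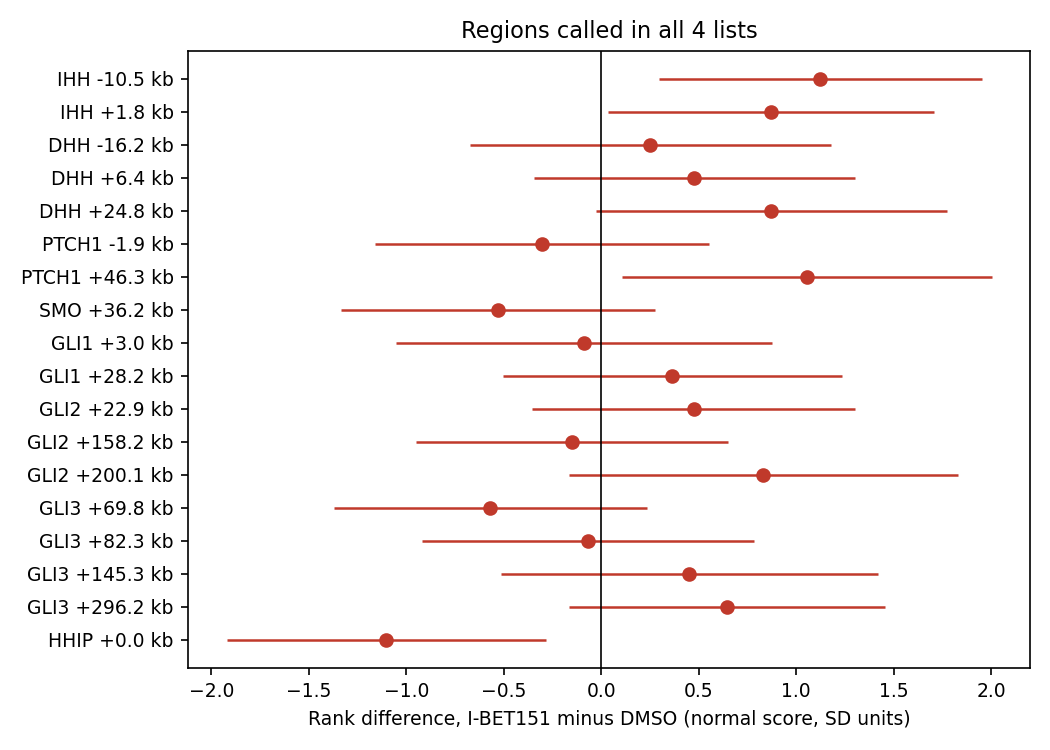
Difference in rank among the shared regions, I-BET151 minus DMSO, in SD units of normal scores (horizontal axis), for the 18 Hedgehog regions called in all 4 lists, named by gene and distance of the summit from the start. Points are limma estimates and lines are 95% intervals, and the intervals of the IHH upstream region, IHH intron 1 and PTCH1 intron 15 lie above 0 and that of HHIP below it, before adjustment over all shared regions.

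A locus score, the mean percentile of a gene's regions in a list with uncalled regions at 0, put all regions of a gene together. DHH and SMO scored highest with I-BET151, at 42.6 ± 1.60 and 39.9 ± 1.24 (SD, n = 2 for each score here), from 36.5 ± 3.40 and 17.8 ± 2.56 with DMSO. GLI1 went from 18.4 ± 2.24 to 34.6 ± 5.68, PTCH1 from 16.3 ± 7.33 to 29.9 ± 1.67 and GLI3 from 13.6 ± 5.59 to 29.1 ± 7.94. These 3 did not differ beyond their spread with I-BET151. IHH went from 14.2 ± 7.28 to 25.0 ± 11.6, HHIP from 14.6 ± 8.72 to 24.5 ± 9.63 and GLI2 from 6.65 ± 5.38 to 20.7 ± 8.10, and these too overlapped one another. SHH was lowest in every list, at 1.08 ± 1.30 and 6.53 ± 5.28. The order at the top rested in part on the starts of neighbouring genes. Without those regions DHH went from 15.4 ± 2.61 to 21.0 ± 3.69, SMO from 2.92 ± 2.30 to 29.8 ± 1.70 and GLI1 from 9.62 and 6.65 in the DMSO libraries to 25.8 ± 6.03. PTCH1 then had the highest mean with I-BET151, and it did not differ from SMO or GLI3 beyond their spread.

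All 9 scores were higher on average with I-BET151, and in 7 of 9 genes both I-BET151 libraries lay above both DMSO libraries, against 51.1% of 18865 protein-coding genes with a region. No Hedgehog gene showed the opposite order, against 2.97% of those genes. The exceptions were IHH, with 19.4 and 9.07 against 16.8 and 33.2, and HHIP, with 20.8 and 8.43 against 17.7 and 31.3. The difference was 22.1 for SMO and 16.3 for GLI1. With equal numbers of peaks per list the difference turned to −16.4 for HHIP and −0.54 for SHH. HHIP then had the opposite order, with 25.7 and 21.1 in the DMSO libraries against 7.70 and 6.24 with I-BET151. Both I-BET151 libraries then lay above both DMSO libraries only at IHH, PTCH1, SMO and GLI3. The share of all genes with either order in that setting was not computed, so these orders cannot be set against the genome. The difference turned to −0.28 for DHH when a peak had to cover 50% of its region.

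Averaged over the 9 genes, the score went from 15.5 ± 4.87 to 28.1 ± 4.60 (SD, n = 2). The difference of 12.6 had a two-sided exact permutation p = 0.33, the smallest that 2 libraries against 2 can give. Between same-numbered libraries it was 5.94 and 19.3, and with the numbers crossed 12.4 and 12.8. It was 20.2 without DMSO replicate 1 and 4.88 with equal numbers of peaks per list. The median difference of the 9 genes was 13.6, and that of all protein-coding genes with a region was 10.6, with 82.9% of them higher. The direction and most of the size were thus shared with the genome.

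**Figure D3:**
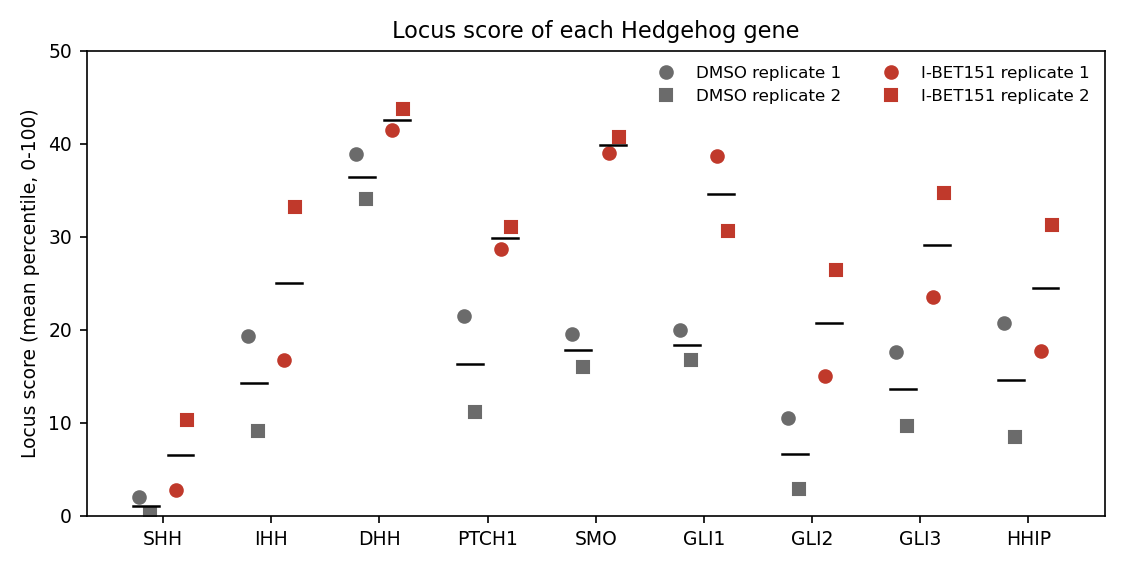
Locus score (mean percentile of fold over a gene's regions, 0 where not called) of the 9 Hedgehog genes in each of the 4 libraries, with a black line at the mean of each condition. In 7 genes both I-BET151 points lie above both DMSO points, and IHH and HHIP are the exceptions.

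The wider pathway was followed in 19 further genes. Apart from HHIPL1, a paralog of HHIP, they process the ligand, sit beside the receptor, regulate the signal inside the cell or act at the cilium. All 19 had a higher mean locus score with I-BET151, with a median difference of 16.6. Of all protein-coding genes with a region 82.9% were higher, with a median of 10.6. The 19 genes held 224 regions, of which 42, or 18.8%, were gained, none was lost and 38 were shared by all 4 lists. Over all merged regions 17.0% were gained, 2.37% were lost and 15.6% were shared. Their start sites were called at 12 and 11 genes with DMSO and at 15 and 17 with I-BET151. For all protein-coding genes the shares were 61.2% and 56.1% with DMSO and 66.6% and 70.4% with I-BET151. Start regions were gained at 4 of the 19, where the share for all protein-coding genes was 8.34%. They were those of the coreceptors BOC and GAS1, the ciliary regulator KIF7 and the secreted protein SCUBE3. The BOC start had folds of 7.28 and 5.68 with I-BET151 and no DMSO peak. The starts of SUFU, which holds GLI proteins in the cytoplasm, and of CDON, another coreceptor, were open in all 4 lists, with folds of 6.63, 6.31, 8.05 and 7.95 at SUFU.

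Genes often used as Hedgehog targets were counted in the same way. The 7 genes, FOXF1, FOXF2, FOXL1, BCL2, CCND1, MYCN and BMP4, held 58 regions. Gained regions were 7, or 12.1% against 17.0% of all regions, and 1 was lost, 1.72% against 2.37%. Starts were called at 2 and 2 of the 7 genes with DMSO, 28.6% against 61.2% and 56.1% of protein-coding genes. With I-BET151 they were called at 4 and 4, 57.1% against 66.6% and 70.4%. FOXF1, FOXF2 and FOXL1, targets in gut mesenchyme, had no called start in any list. CCND1, the cyclin D1 gene, had the one gained start of the 7 genes, with folds of 3.19 and 3.23. Of all protein-coding genes 8.34% had a gained start. At BMP4 the start was open in all 4 lists, with folds of 4.27, 3.44, 3.60 and 3.64, which overlapped between conditions.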

How the data were processed

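ATAC-seq was run on 50000 cells per library, in 2 libraries per condition, and only the authors' peak lists were used. The authors aligned paired-end reads to hg38 with Bowtie2 2.2.5, removed duplicate and mitochondrial reads, and called peaks per library with MACS2 2.1.2 (versions from the submitters' processing notes). Each deposited list gives, per peak, a fold, the −log10 of its p-value and q-value, a score, which was not used, and a summit. The fold is the ratio of reads at the summit to local background, with a small constant added to both. Every deposited q-value was at most 0.05, and 7.54% to 10.9% of peaks had a p-value above the 1e-05 given in the methods. No read counts were used, so depth is not known directly. The authors' folds and p-values imply reads at each summit (100% of peaks fitted within 0.01 in log10, 6 to 127 reads in Hedgehog regions) and totals of about 38.7 and 36.6 M (DMSO) and 12.5 and 16.0 M reads (I-BET151), if a read was extended to the list's shortest peak. Precision is thus limited at small peaks.

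Peaks on the main chromosomes were merged at an overlap of 1 bp (Python 3, pandas), and the fold of a region is that of its highest peak. Regions were annotated with canonical GENCODE 44 transcripts, RefSeq promoters came from GRCh38.p14, and motifs were searched on both strands within 100 bp of the summit. CTCF was searched with a 12-letter consensus. For the regions called in all 4 lists, ranks of fold among these regions within a list were turned into normal scores and tested with limma, adjusted by Benjamini-Hochberg at 0.05, with single values tested by exact permutation. The limma fit was tested on simulated data. There all libraries had independent noise of equal spread, and the moved regions differed by many times that spread. Such data do not show how the fit behaves for smaller differences or for libraries of unequal depth.

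All 9 genes were described, and regions were named by a rule: the start regions (within 1 kb of the canonical start), the region of highest mean fold, gained and lost regions (by coordinates for at most 3 a gene) and any region past the adjusted threshold. A few further regions (in introns of GLI1, GLI3, IHH and PTCH1, and PTCH1 and SHH upstream) were named after their values were seen. The genes, lists and rules were chosen with earlier results of these data known. An item of the list of other pathway genes is not reported here. Alternatives changed the p-value minimum, the number of peaks, the overlap, the window, the ranked value, and the pairing of replicates, and left out each library. Whether same-numbered libraries pair was checked over 25627 regions. The correlation of their deviations was −0.14, and the numbers were not taken as pairs. Such a correlation does not tell whether same-numbered libraries shared a batch, which was not tested. The shortest peak was 200 bp in both lists numbered 1. It was 233 bp in DMSO replicate 2 and 256 bp in I-BET151 replicate 2.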

Additional observations from a re-analysis of the deposited data

How the results depend on the processing

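The count of 20 gained regions became 12 at −log10 p of at least 10 and 6 with equal numbers of peaks. It was 11 in gene bodies alone. In that order these are 24%, 16.2% and 15.1% of the Hedgehog regions, against 23.3%, 9.19% and 17.0% of all regions. The count ran from 21 to 45 with 1 library left out, 18.9% to 42.9% against 18.3% to 43.7% of all. The single lost region became 0 at −log10 p of at least 10 and in gene bodies alone, against 0.269% and 2.37% of all regions. It became 2 with equal numbers of peaks, 5.41% against 5.85%, and 2 with 50 kb on each side, 1.31% against 2.37%. With 1 library left out it became 1 to 19, 0.952% to 17.1% against 2.75% to 20.9% of all. No region was past the limma threshold in rank. With log2 fold not centred 17 were higher, where 76.5% of all shared regions were. With 50 kb on each side 1 was higher, where 3.41% of all shared regions were. Fits with 1 library left out hold a lone library in 1 condition, so their calls are not counted here. With log2 fold centred on the library median 1 was lower, the HHIP start, where 4.33% of all shared regions were. The replicate block gave 0 higher and 0 lower, where 985 and 652 of all 25627 shared regions were. The crossed replicate block, added after the data were seen (same-numbered libraries correlated at −0.14), gave 1 higher and 1 lower. Over all shared regions the crossed block gave 1985 higher and 1567 lower. The mean locus score difference of 12.6 became 21.4 at −log10 p of at least 10 and 4.88 with equal numbers of peaks. It ran from 9.71 to 20.2 with 1 library left out. With the replicate block it was 12.6, since averaging over the pairs returns the same difference by construction. Reversed signs were −0.54 for SHH and −16.4 for HHIP with equal numbers of peaks, and −0.28 for DHH where peaks covered at least 50% of the region, tried for this score after the data were seen. Of 117 alternatives for single genes, 86 moved the score by less than the replicate spread and 28 by more without turning it. Some of the 86 were fixed in advance. The replicate block returns the same difference for each of the 9 genes. Leaving out neighbours' starts changed no region at SHH, IHH, PTCH1, GLI2, GLI3 and HHIP. Leaving out regions at the starts of neighbouring genes, also chosen after seeing the data, left 20 gained and 1 lost, but lowered the scores of DHH with DMSO and I-BET151 from 36.5 and 42.6 to 15.4 and 21.0, and that of SMO with DMSO from 17.8 to 2.92. Why values moved was not tested.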
